A study of Arabidopsis thaliana with 7 samples.

Results

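The comparison of IAA with untreated flowers took 6 of the 7 arrays of the study, chosen by their titles: 3 arrays of flowers that received a spray of IAA, or indole-3-acetic acid, the main natural auxin, and 3 of untreated flowers, 1 of each per genotype. The genotypes were the double mutant arf6 arf8, the genotype labelled arf6/arf6 ARF8/arf8, and wild-type Columbia. The array of Columbia flowers sprayed with a mock solution was left out of the fit, and its values are given beside the results. RNA came from Arabidopsis flowers of stages 1 to 14 on plants grown for 6 weeks in long days. IAA was sprayed in 1% methanol with 0.05% Tween-20, and the series text puts the harvest 30 minutes later. On the dose the sources differ, with 10 µM in the sample labels but 10 mM in the text of the series. They also differ on the genotype with 1 wild-type copy, which the series text writes with the wild-type copy at ARF6. Untreated plants received no spray, so IAA and the spray cannot be told apart in the mutants, and no source used here says how many plants were pooled for an array.

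Auxin acts through a short pathway. The hormone joins its TIR1/AFB receptors to the Aux/IAA repressors, the repressors are degraded, and the auxin response factors (ARFs) that they held back can then switch on their target genes. Known early targets include Aux/IAA genes, SAUR growth genes, GH3 genes, whose enzymes join auxin to amino acids, and homeobox genes of the HAT group. ARF6 and ARF8 promote the last phase of flower growth, and flowers of the double mutant are known to stop as closed, infertile buds with short stamens.

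On the 6 arrays the median intensity lay between 240.95 and 248.7 in the units of the file. In a principal component analysis of the tested probe sets the first component, with 56.5% of the variance, ordered the genotypes. The second, with 19.4%, separated the treatments: the scores of the IAA arrays were -18.68, -6.01 and -14.12 in arf6 arf8, arf6/arf6 ARF8/arf8 and Columbia, against 20.32, 17.03 and 1.46 on the untreated arrays in that order. Each group holds 1 array. Every p-value below therefore measures how well the genotypes agree on a difference, and no difference between 2 arrays has a repeat of its own. ARF6 and ARF8 are not listed among the named probe sets, so the genotypes could not be checked on the mutated genes. The carpel gene SPT read 801.3, 600.2 and 457.8 with IAA and 622.9, 569.7 and 395.1 untreated, in the same order of genotypes. The tissue label was checked on few genes.

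Auxin-responsive genes were among the transcripts that rose in all 3 genotypes. HAT2, a homeodomain-leucine zipper gene known as an early auxin target, read 3942.4 with IAA in arf6 arf8, 1763.6 in arf6/arf6 ARF8/arf8 and 2111.9 in Columbia, against 1321.3, 819 and 881.7 untreated. All 3 IAA arrays lay above all 3 untreated arrays. The fitted rise was 2.49-fold (log2 1.31 ± 0.13 SE; limma, adjusted p = 0.0091). GH3.3, whose enzyme conjugates IAA to amino acids and so lowers free auxin, read 955, 1659.6 and 2011.6 with IAA, against 539.9, 662.4 and 725.1 untreated. Its rise was 2.31-fold (log2 1.21 ± 0.15; limma, adjusted p = 0.0186). The groups did not overlap for GH3.3 either, and the level with IAA was lowest in the double mutant. ARL, a relative of the organ size gene ARGOS that promotes cell expansion, read 817.5, 650.9 and 1038.1 with IAA, against 431, 356.5 and 727.5 untreated. ARL rose 1.70-fold (log2 0.77 ± 0.13; limma, adjusted p = 0.0428), and its groups overlapped because untreated Columbia was above arf6/arf6 ARF8/arf8 with IAA.

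The wider auxin machinery was thinly covered. Of the 3 GH3 genes tested 1 rose and 0 fell, of the 3 other auxin-inducible genes 2 rose and 0 fell, and the single class II homeodomain gene tested was HAT2 itself, listed in both. Over all 12701 probe sets tested 0.803% were called higher and 0.409% lower. The median fitted log2 difference was 0.35 for GH3 and 0.77 for the other auxin-inducible genes, against -0.01 over all probe sets. WES1, also known as GH3.5, read 2995.3, 1472.1 and 1258 with IAA, against 1963.1, 1195.6 and 1138.7 untreated (log2 0.35 ± 0.13; limma, adjusted p = 0.242). GH3.17 had a fitted difference of 0.35 ± 0.18 with a log2 ratio of 0.90 in arf6 arf8, 0.05 in arf6/arf6 ARF8/arf8 and 0.11 in Columbia. The repressor gene IAA18 and the auxin synthesis gene YUC2 had fitted differences of 0.22 ± 0.11 and -0.07 ± 0.11 (limma, adjusted p = 0.391 and 0.791). SHI, a transcription factor gene of organ development, was at 0.27 ± 0.17. No SAUR, ARF or auxin transport gene was tested under its name.

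**Figure D1:**
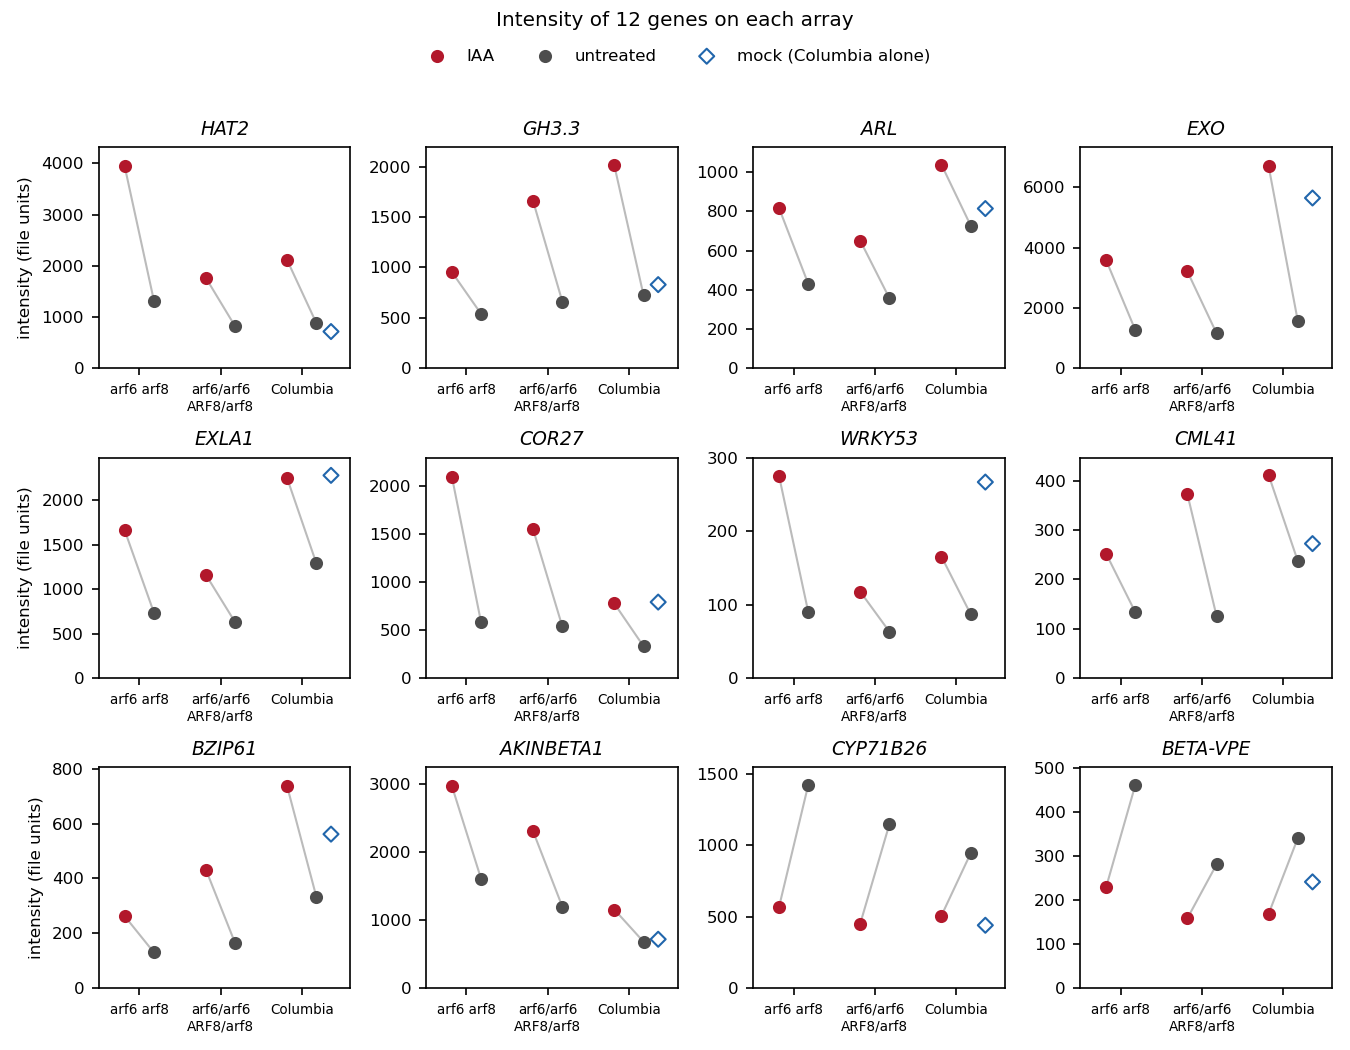
Deposited intensity (vertical axis from 0, units of the file) of 12 genes on each array, with IAA in red left of untreated in grey for each genotype and the Columbia mock array as an open diamond. Each point is 1 array and a line joins the 2 arrays of a genotype. HAT2 and GH3.3 had mock values of 717.5 and 829.8, near their untreated Columbia arrays, while EXO and COR27 had 5650.4 and 791.4, near their IAA arrays.

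In the exordium, expansin and xyloglucan hydrolase lists the calls were EXO, EXLA1 and EXLA2, all higher. Other cell wall genes, such as those that act on pectin, had no list, so their calls are not counted here. EXO, an extracellular protein gene that promotes growth and also responds to brassinosteroids, read 3584.7, 3211.9 and 6699.1 with IAA in arf6 arf8, arf6/arf6 ARF8/arf8 and Columbia, against 1261.8, 1156 and 1557.6 untreated. It rose 3.24-fold (log2 1.70 ± 0.15; limma, adjusted p = 0.00798), and every IAA array exceeded every untreated one. The Columbia mock array, at 5650.4, was near the IAA array. EXLA1 and EXLA2 encode expansin-like proteins of the wall. EXLA1 read 1664, 1163.2 and 2249.1 with IAA, against 738.8, 630.2 and 1292.6 untreated, and its mock value was 2281.6. EXLA2 read 251, 324.8 and 550.3 with IAA, against 171.6, 134.4 and 256.1 untreated, with a mock value of 554.3. Both rose by nearly the same factor, 1.93-fold and 1.97-fold (limma, adjusted p = 0.0186 and 0.0411), and for both the lowest IAA arrays lay below untreated Columbia.

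EXLA1 and EXLA2 were the 2 members called among 12 tested expansin and xyloglucan hydrolase genes, with 0 lower. The list median was 0.02 on the log2 scale, and 0.803% of all probe sets tested were called higher. The classical expansins tested went without a call, and 12 of the 29 probe sets that the list named were tested. EXPA15, which encodes a wall-loosening alpha-expansin, read 634.9, 593.1 and 714.8 with IAA, against 812.5, 959.9 and 1355.8 untreated (log2 -0.66 ± 0.14; limma, adjusted p = 0.081). EXPA4 and EXPB3 had fitted differences of -0.39 ± 0.11 and -0.40 ± 0.11 (limma, adjusted p = 0.174 and 0.153). Of the genes for xyloglucan-modifying enzymes EXGT-A3 was at 0.60 ± 0.11 and XTH16 at 0.55 ± 0.11 (limma, adjusted p = 0.0579 and 0.072), each with a ratio above 0 in all 3 genotypes, while XTH32 was at -0.20 ± 0.14.

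The calmodulin, WRKY and touch lists, matched by symbol or synonym, gave single calls. Genes of these kinds that are known by locus code can be missing from the lists. CML41, a calmodulin-like calcium sensor gene, read 251.9, 372.3 and 411 with IAA, against 133.3, 125.2 and 236.7 untreated. Its rise was 2.14-fold (limma, adjusted p = 0.0323), its groups did not overlap, and its mock value of 272.4 was closer to untreated than to IAA. CML42, the other calmodulin-like gene tested, was at 0.07 ± 0.12. WRKY53, a transcription factor gene of defence and leaf senescence, read 275.3, 117.8 and 165.4 with IAA, against 90.3, 63.3 and 87.1 untreated. The value of 63.3 lies below the floor of 64.9, to which every lower intensity was raised before logarithms were taken, so folds of dim genes are understated. WRKY53 rose 2.19-fold (log2 1.13 ± 0.16; limma, adjusted p = 0.0308). Its Columbia mock array, at 266.8, was above the Columbia IAA array. The other WRKY genes tested, WRKY20 and ZAP1, were at -0.02 ± 0.11 and -0.21 ± 0.11.

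STZ, a zinc finger gene induced by touch, salt and cold, varied most between genotypes among the touch and wound genes tested. It read 762.9, 235.1 and 325.9 with IAA, against 171, 159.4 and 325.2 untreated. The log2 ratio was 2.16 in arf6 arf8, 0.56 in arf6/arf6 ARF8/arf8 and 0.00 in Columbia, and the fitted difference of 0.91 ± 0.36 did not pass (limma, adjusted p = 0.278). Of the 4 touch, wound and rapid stress genes that the list matched, WRKY53 was the single call. The U-box genes PUB43 and PUB49 were at -0.01 ± 0.11 and -0.05 ± 0.12. U-box genes known by locus code can be missing from the list, so these values do not describe the family.

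Among the cold, clock and light genes that the lists matched by symbol or synonym, COR27 was the single call. AT3G44450, known by locus code and outside these lists, was called lower at log2 -1.57 and is described with the falls. COR27 encodes a cold-regulated protein that acts as a repressor in the circadian clock and in light signalling. COR27 read 2095, 1548 and 777.1 with IAA, against 581.8, 538.4 and 332.5 untreated, a rise of 2.89-fold (log2 1.53 ± 0.14; limma, adjusted p = 0.0083). Its order among genotypes was the same with IAA as without, and the mock array read 791.4. The clock gene GI read 1329.6, 1184.6 and 1294.9 with IAA, against 1311.9, 1124.2 and 1170.8 untreated (log2 0.08 ± 0.11). The 4 cold and dehydration genes tested gave 0 calls in limma, with 2 at an unadjusted p under 0.05. COR15A, a chloroplast cold-protection gene, was at -0.59 ± 0.14, with ratios below 0 in all 3 genotypes, and its relative COR15B was at 0.35 ± 0.12, with ratios above 0 (limma, adjusted p = 0.125 and 0.229).

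Energy signalling and bZIP factors supplied further rises. AKINBETA1 encodes a regulatory beta subunit of the SnRK1 kinase, the plant relative of the energy sensor AMPK. It read 2969.1, 2302.3 and 1155.3 with IAA, against 1606.4, 1198.4 and 682.4 untreated, and 719.4 with mock. The rise was 1.82-fold (log2 0.86 ± 0.11; limma, adjusted p = 0.0186). The genotypes differed more than the treatments, so both untreated mutant arrays were above Columbia with IAA. Among the 12 bZIP transcription factor genes tested 2 rose and 0 fell, against 0.803% and 0.409% of all probe sets. BZIP61 read 262.8, 432.2 and 735.7 with IAA, against 130.6, 164.4 and 333 untreated, and rose 2.27-fold (limma, adjusted p = 0.00991). BZIP53, whose product works with other bZIP proteins in seed maturation and the response to energy starvation, read 2058.4, 1858.1 and 2443.3 with IAA, against 1282.4, 1275.9 and 1243.2 untreated. Its untreated arrays were nearly level, and it rose 1.66-fold (limma, adjusted p = 0.049). The unfolded protein response gene BZIP60 was at 0.07 ± 0.13.

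The remaining large rises lie on genes known here by locus code alone. AT1G72900 read 409.6, 385.2 and 397.7 with IAA in arf6 arf8, arf6/arf6 ARF8/arf8 and Columbia, against 114.1, 67.7 and 120.1 untreated, so the genotypes reached almost the same level with IAA. It had the largest fitted rise of a single-gene probe set, 4.07-fold (limma, adjusted p = 0.00523). AT1G50040 read 231.3, 198.8 and 274.1 with IAA, against 82.4, 56.4 and 45 untreated, where the arf6/arf6 ARF8/arf8 and Columbia values lie below the floor, and its fitted rise was 3.31-fold. AT4G27280, at 2.98-fold, read 2125.2, 697.2 and 1663.8 with IAA, against 502.7, 322.9 and 572.7 untreated, and 889.8 with mock. AT3G19680 and AT3G46600 rose 2.85-fold and 2.65-fold. AT1G72940, AT1G25400, AT1G55450, AT3G04210, AT4G23870, AT1G22890, AT2G44500 and AT1G25275 rose between 1.97-fold and 2.36-fold (limma, adjusted p from 0.0091 to 0.049). Of these 13 genes AT1G22890 alone had overlapping groups: it read 669.2, 459 and 241.9 with IAA, against 304.5, 239.3 and 126.5 untreated.

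**Figure D2:**
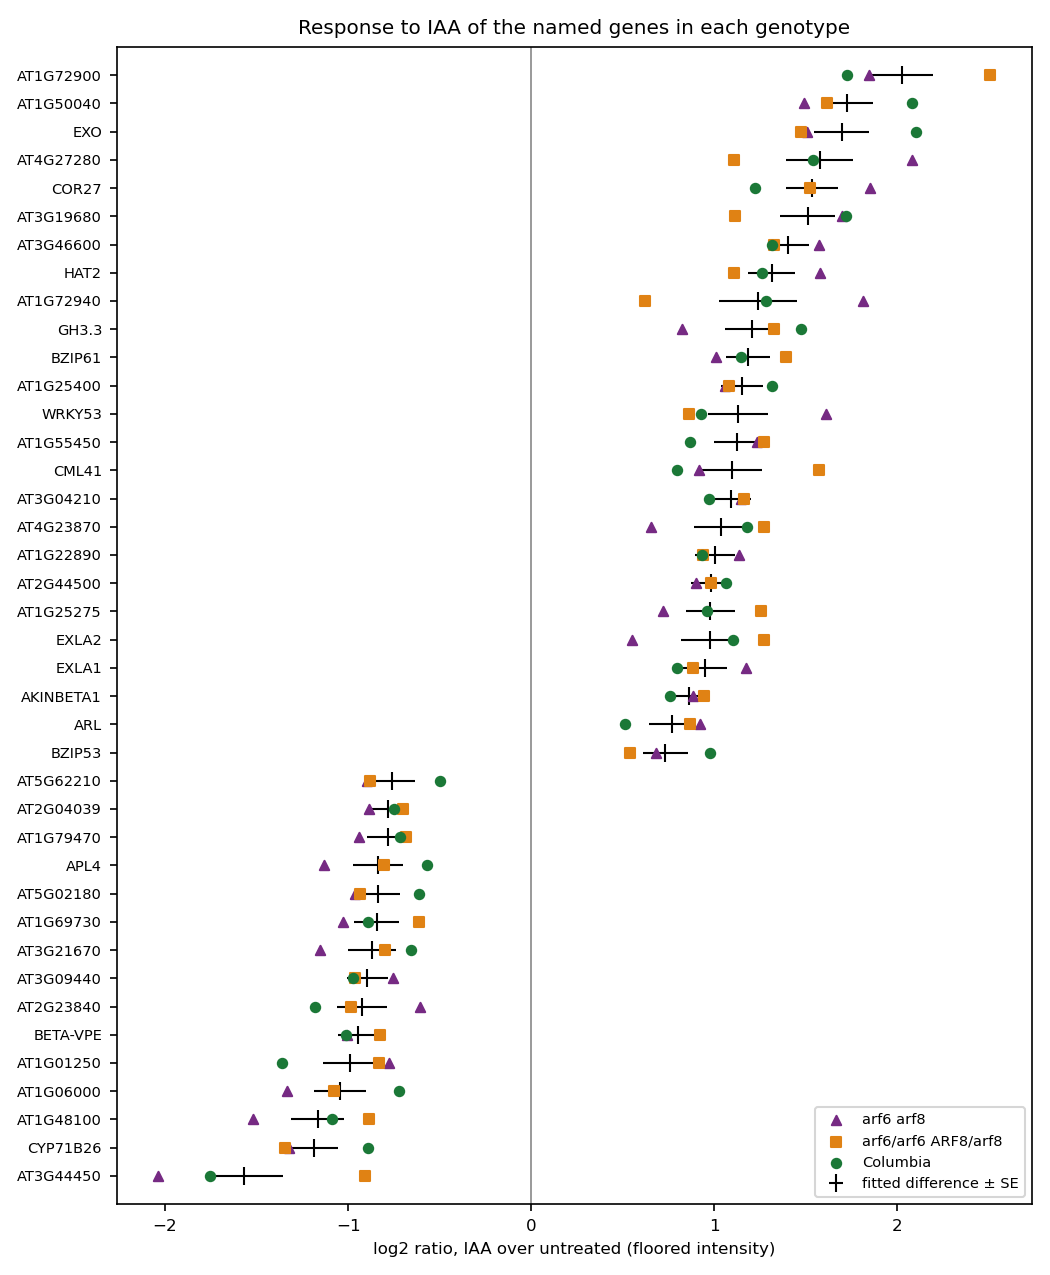
Log2 ratio of IAA over untreated (horizontal axis, floored intensity) for the named genes past the test, with a triangle for arf6 arf8, a square for arf6/arf6 ARF8/arf8 and a circle for Columbia, and the fitted difference with its standard error in black. Every ratio of a gene lies on the same side of 0, as the rule for naming rises and falls required. For GH3.3 the triangle, at 0.82, is the lowest of the 3, and for HAT2, at 1.58, the highest.

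Fewer probe sets were called lower (52) than higher (102). Over all probe sets tested, called or not, 2680 were lower and 2438 higher with IAA in all 3 genotypes. CYP71B26, a cytochrome P450 gene, read 567.5, 452.1 and 508.2 with IAA, against 1420.9, 1148.5 and 944.4 untreated, and 440.7 with mock. The IAA arrays lay close together below all untreated arrays, and the fall was 2.28-fold (log2 -1.19 ± 0.13; limma, adjusted p = 0.0128). BETA-VPE, which encodes a vacuolar protease that matures seed storage proteins, read 229.8, 158.9 and 169.1 with IAA, against 462, 281.4 and 341.1 untreated. It fell 1.93-fold (limma, adjusted p = 0.0157), and the mock value of 241.5 was between the Columbia arrays. AT3G21670, the nitrate transporter gene NPF6.4, read 1442.8, 1297.5 and 1245.6 with IAA, against 3210.6, 2252.6 and 1964.7 untreated. It fell 1.83-fold (limma, adjusted p = 0.0323). AT3G21670 was the 1 lower call among 7 nitrate transport genes tested, against 0.409% of all probe sets, with 0 higher and a list median of -0.05. The glucosinolate transporter gene GTR2 of the same family was at 0.25 ± 0.14. APL4, a large subunit gene of the enzyme that makes the precursor of starch, read 149.5, 223.2 and 228.1 with IAA, against 327.3, 390.1 and 338.6 untreated, a fall of 1.78-fold (limma, adjusted p = 0.0428).

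Among falls known by locus code, AT3G44450 had the largest. It read 65.5, 107.8 and 83.2 with IAA, against 268.9, 202.4 and 280.4 untreated, and 148 with mock, and fell 2.96-fold (log2 -1.57 ± 0.21; limma, adjusted p = 0.0231). AT1G48100 read 91.5, 143.8 and 129.7 with IAA, against 262.3, 265.9 and 276.2 untreated, so its untreated level was nearly the same in the 3 genotypes. It fell 2.24-fold and had a mock value of 41.6, below the floor. AT1G06000 fell 2.06-fold, AT1G01250 1.99-fold, AT2G23840 1.90-fold and AT3G09440 1.86-fold. AT1G69730, AT5G02180, AT1G79470, AT2G04039 and AT5G62210 fell between 1.69-fold and 1.80-fold (limma, adjusted p from 0.0186 to 0.0447 for the genes named only here). For AT3G09440, AT1G01250 and AT1G06000 the groups overlapped. AT1G01250 read 37.1, 114.8 and 276.6 with IAA, against 111.3, 204 and 711.8 untreated, so it was lower in both mutants than in Columbia under each treatment. Hsp70-2, the single tested gene that the heat shock list matched by name, had a steady ratio near -0.53 in each genotype. Its fitted difference was -0.53 ± 0.10 (limma, adjusted p = 0.0732). The list can miss genes known by locus code, so other heat shock genes may be among the falls above.

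Over all probe sets 154 were called, 1.21% of those tested: 102 higher and 52 lower. Of these 67 carry 1 gene, 48 higher and 19 lower, 4 carry several and 83 have no gene listed. All 154 moved the same way in the 3 genotypes. In 78 of the 102 rises every IAA array was above every untreated array, as in 5.02% of all probe sets tested, and in 38 of the 52 falls every IAA array was below, as in 6.66%. The number of calls depended on the arrays and on the filter. Without the arf6 arf8 pair the limma count was 0 (1633 had an unadjusted p under 0.05), with no filter on dim probe sets 0 (2429) and without the genotype term 0 (742), while without the Columbia pair it called 380. Each of the 67 single-gene calls lost its call in at least 5 of the settings. Their direction never reversed where they were tested, but most settings could not reverse it. Leaving out a pair cannot do so when all 3 genotypes agree. The filter, the prior and the genotype term do not alter the fitted difference.

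**Figure D3:**
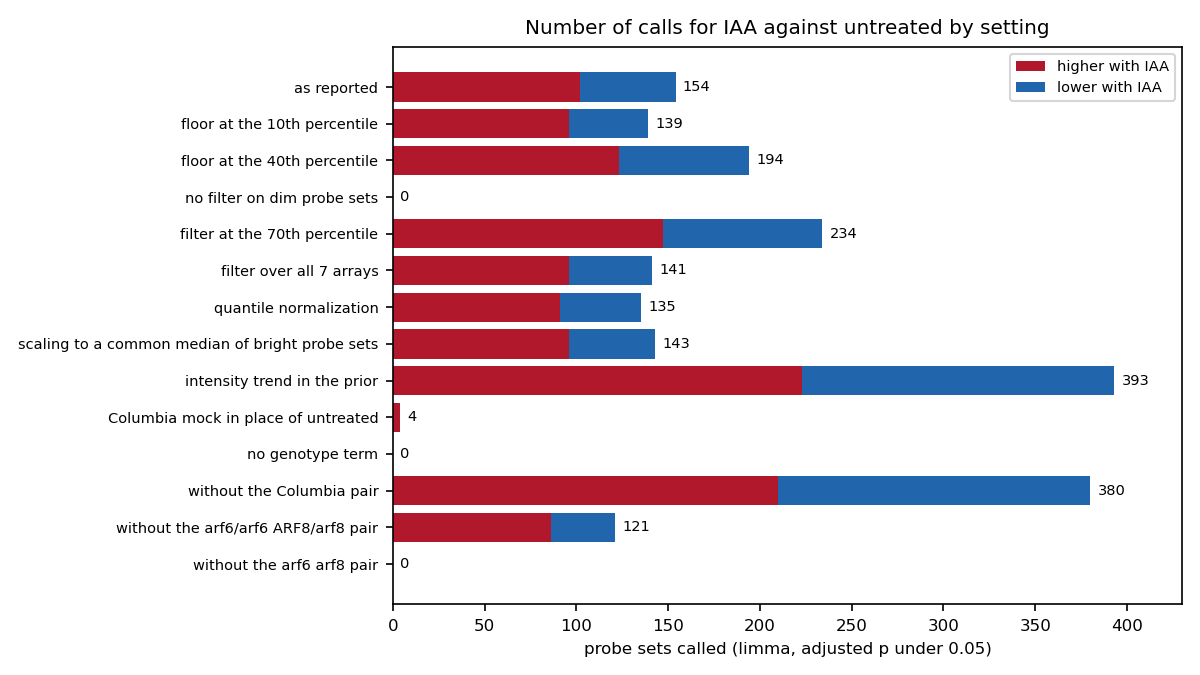
Number of probe sets called for IAA against untreated (horizontal axis) under each setting, higher in red and lower in blue. The count as reported is 154, and it ranged from 0 without the arf6 arf8 pair, without the genotype term or with no filter to 393 with an intensity trend in the prior.

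The genotypes differed in how widely the ratios spread. The standard deviation of the log2 ratio over the 12701 probe sets was 0.408 in arf6 arf8, 0.311 in arf6/arf6 ARF8/arf8 and 0.289 in Columbia. At least 2-fold higher with IAA were 145, 92 and 85 probe sets, and at least 2-fold lower 158, 47 and 33, in that order of genotypes. The pairs share no array, and their ratios correlated across probe sets with Pearson's r = 0.45 between arf6 arf8 and arf6/arf6 ARF8/arf8, 0.29 between arf6 arf8 and Columbia, and 0.37 between arf6/arf6 ARF8/arf8 and Columbia (n = 12701 probe sets, which are not independent replicates; Spearman's rho 0.39, 0.21 and 0.29). Among the 102 higher calls the median log2 ratio was almost the same in each genotype, 1.00 in arf6 arf8, 0.96 in arf6/arf6 ARF8/arf8 and 0.97 in Columbia. Among the 52 lower calls it was -0.95, -0.83 and -0.82. The calls themselves require agreement between the genotypes.

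**Figure D4:**
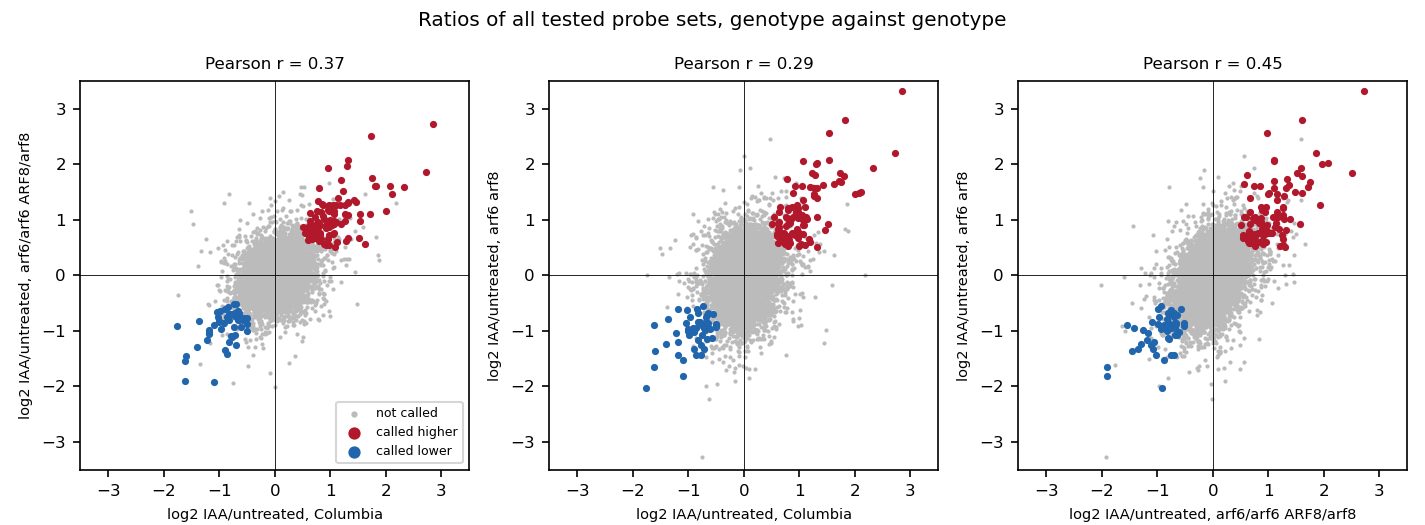
Log2 ratio of IAA over untreated in one genotype against another for all 12701 tested probe sets, 1 panel for each pair of genotypes, with called probe sets in red (higher) and blue (lower). The cloud is widest along the arf6 arf8 axis, and all called probe sets lie in the quadrants where both ratios have the same sign. A call rests on such agreement between the genotypes.

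Whether single genes responded differently in the double mutant was tested with a term for IAA in that genotype. The share called was 0% of the 12701 probe sets (limma, smallest adjusted p = 0.405, with 1438 at an unadjusted p under 0.05), and 1 residual degree of freedom was left. With so few arrays a count of 0 does not show that the genotypes responded alike. Among the single-gene calls the largest positive differences, arf6 arf8 minus the other genotypes, were 0.86 ± 0.32 for AT1G72940, 0.76 ± 0.25 for AT4G27280, 0.72 ± 0.18 for WRKY53, 0.48 ± 0.20 for AT1G01640 and 0.47 ± 0.22 for COR27. The largest negative ones were -0.71 ± 0.39 for AT3G44450, -0.64 ± 0.19 for EXLA2, -0.58 ± 0.19 for GH3.3, -0.57 ± 0.18 for AT4G23870 and -0.53 ± 0.20 for AT1G48100. None of these 10 passed (limma, adjusted p from 0.405 to 0.53). For a falling gene such as AT3G44450 a negative difference means a deeper fall in the double mutant, with log2 ratios of -2.04 in arf6 arf8, -0.91 in arf6/arf6 ARF8/arf8 and -1.75 in Columbia. GH3.3 had 0.82, 1.33 and 1.47 in that order, with the smallest ratio in arf6 arf8, whereas HAT2 had 1.58, 1.11 and 1.26.

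The mock array placed the calls against the spray in Columbia alone. For 77 of the 102 higher and 41 of the 52 lower probe sets the mock value lay nearer to the IAA array than to the untreated array on the log2 scale. The untreated and IAA arrays of Columbia also entered the calls, so this count is not independent of them. Among the genes named so far HAT2, GH3.3, ARL, CML41, AKINBETA1, AT4G27280, AT1G72940, AT1G22890 and BETA-VPE lay nearer to untreated. When the mock array stood in for untreated Columbia, 4 probe sets passed in limma, all higher, all among the 154 and none with a gene listed. Unadjusted p-values under 0.05 numbered 813 there. Probe set 257766_at read 600.1, 851.7 and 1056.3 with IAA in arf6 arf8, arf6/arf6 ARF8/arf8 and Columbia, against 147.4, 200.9 and 422.1 untreated and 227.1 with mock. Probe set 259773_at read 394.3, 1007.7 and 1770.4 with IAA, against 130.7, 306.5 and 775.1 untreated and 517.8 with mock. In that fit HAT2 had a log2 difference of 1.41 and GH3.3 of 1.14, and neither passed (limma, adjusted p = 0.117 and 0.245).

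The remaining lists held few calls. All 11 bHLH genes tested were uncalled, with a median of 0.01, and bHLH121 was the furthest from 0 at 0.40 ± 0.17. Of the 16 SnRK1 and sugar genes, mostly SWEET sugar transporters, AKINBETA1 was the single call, and the median was -0.00. SWEET14 read 57.7, 336.8 and 746.8 with IAA, against 185.7, 369.7 and 848.8 untreated, so its lowest value fell on 1 array of the double mutant. The jasmonate genes had 0 of 4 called and a median of 0.07, the gibberellin genes 0 of 3 and 0.11, and the ethylene genes 0 of 2 and 0.05. The AP2/ERF, NAC, cytokinin and MAP kinase lists, matched by symbol, had 1 tested gene each (SHN3, NAC014, RR16 and ATMPK8), and these were uncalled. A gene known by locus code can be missed by its family list. AT5G61590, the AP2/ERF gene DEWAX described with the further observations, is not counted in the AP2/ERF list. Over all lists 109 probe sets were tested, of which 12 were called higher and 1 lower. Over all 12701 probe sets tested 0.803% were called higher and 0.409% lower. Since the lists were chosen with earlier results known, these counts describe their members and no more.

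**Figure D5:**
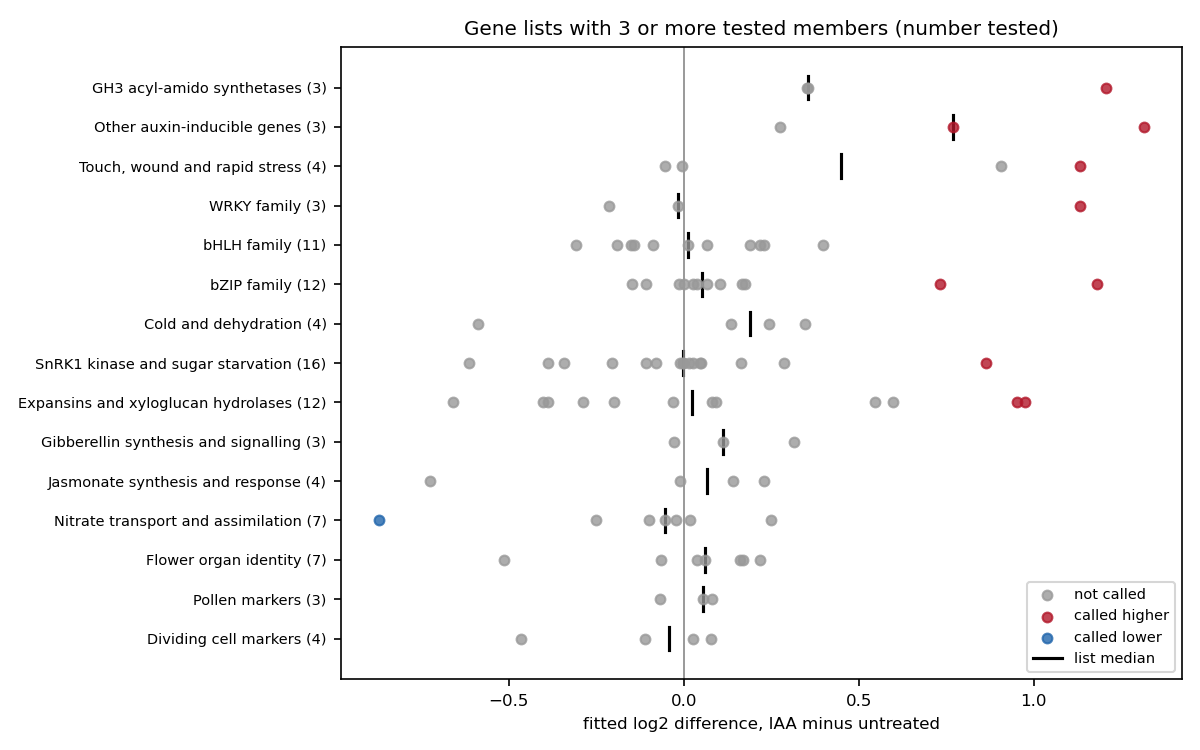
Fitted log2 difference, IAA minus untreated (horizontal axis), of each member of the 15 lists with 3 or more tested members, with called members in colour, uncalled in grey and the list median as a black bar. Medians of the lists with 7 or more members run from -0.05 for nitrate transport to 0.06 for flower organ identity, and no list has more than 2 called members. In the flower organ identity list the tested members were SPT, AGL16, AGL18, AGL26, AGL42, AGL65 and AGL87, without AP1, AP3, PI, AG or a SEP gene. The nitrate transport list includes the glucosinolate transporter gene GTR2.

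Markers of cell types were tested in small numbers, and none was called. In bulk flowers fewer cells of a type and less RNA per cell cannot be told apart. The pollen genes AT59, ANX2 and TUA1 had fitted differences of 0.08 ± 0.14, -0.07 ± 0.20 and 0.06 ± 0.12. AT59 read 407.5, 675.1 and 1063.5 with IAA, against 477.6, 626.8 and 828.1 untreated, so it varied far more with genotype than with IAA. ANX2 had ratios of -0.58 in arf6 arf8, -0.15 in arf6/arf6 ARF8/arf8 and 0.54 in Columbia. The tapetum gene AMS was at 0.07 ± 0.15, the nectary sugar transporter gene SWEET9 at -0.20 ± 0.12 and the green tissue gene RCA, for the activase of Rubisco, at -0.15 ± 0.12. Of 4 genes of dividing cells the furthest from 0 was the centromeric histone gene HTR12 at -0.47 ± 0.17 (limma, adjusted p = 0.25). The part of cell type in the IAA differences was not tested.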

How the data were processed

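Flower RNA was measured on 1-colour Affymetrix arrays. The deposited values are linear intensities, and MAS5 is named, without version, in the submitters' processing notes; the authors' scaling (a 2% trimmed mean of 500.03 or 500.04 on each array, by test of the file) was kept. The 64 AFFX control probe sets and the mock array were left out. Values under 64.9, the 25th percentile over the file, were raised to it before log2, which shrinks folds of dim genes. A probe set was tested if at least 1 of the 6 arrays was above 248.1, the 50th percentile, which left 12701 of 22746. A linear model with genotype and IAA as additive terms was fitted in limma 3.58.1 (R 4.3.3; lmFit, eBayes), with 2 residual degrees of freedom, a prior worth 5.08, and Benjamini-Hochberg adjustment over all probe sets at 0.05. It was tested on simulated data. The number of arrays limits the precision, and p-values assume additive effects and measure the spread between genotypes.

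Of the probe sets 13513 carried 1 symbol in the platform annotation of 2016, 503 several and 8730 none listed; 13484 matched RefSeq (TAIR10.1), used for names and neighbours only. Named were the 20 largest rises and 15 largest falls among single-gene calls moving the same way in all pairs, called members of 37 lists or else up to 3 with the largest difference, and the 5 largest differences each way in the double mutant's response; other names were chosen after their values were seen. BRK1 was taken out of the heat shock list, which it had matched by a synonym. The members and lists were chosen with earlier results of these data known. Promoter motifs were planned and not analysed here. Alternatives covered floor, filter, normalization, variance prior, genotype term, the mock array as reference and each array left out.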

Additional observations from a re-analysis of the deposited data

How the results depend on the processing

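The count of 154 calls for IAA lay between 135 and 194 with a floor at the 10th or 40th percentile, a filter over all 7 arrays, quantile normalization, or arrays scaled to equal medians over bright probe sets. It was 0 with no filter on dim probe sets, 0 without the genotype term, 4 with the Columbia mock array in place of untreated, 393 when the limma prior followed intensity and 234 when the filter was raised to the 70th percentile. Leaving out 1 array at a time gave 0 to 380: 0 without either arf6 arf8 array, 121 without either arf6/arf6 ARF8/arf8 array and 380 without either Columbia array, since the partner of a missing array says nothing about IAA. The causes were not tested. Of the 154, 135 were called after quantile normalization, 144 without a Columbia array and 87 without an arf6/arf6 ARF8/arf8 array. With a floor at the 40th percentile AT1G50040, AT1G72940, AT1G25400, WRKY53, AT1G01640, AT1G01250 and AT3G44450 lost their calls, and WRKY53 had a log2 value of 0.29 under it. BZIP53 lost its call in 13 of 16 settings. The count of 0 for the double mutant's response stayed 0 in the 8 settings planned for it and with the mock array as reference, an alternative chosen after seeing the data (limma, 749 at an unadjusted p under 0.05, smallest adjusted p = 0.822); leaving out an array left it with no residual degree of freedom or no estimate. The genotype term pairs the IAA and untreated arrays of each genotype, and the labels give no other pairing. Signal near background limits what can be said of dim genes.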

Other observations

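Several single-gene calls outside the naming rule, chosen after their values were seen, have known roles. UGT74D1, whose glucosyltransferase acts on auxin and its oxidation product, read 298.5, 303.3 and 234.9 with IAA in arf6 arf8, arf6/arf6 ARF8/arf8 and Columbia, against 451.5, 451.3 and 421.6 untreated, a fall of 1.59-fold (limma, adjusted p = 0.049, and 0.0242 to 0.592 over the other settings, 13 of 15 of which lost the call). It fell while GH3.3, the other auxin-inactivating gene called, rose. MCCA, a subunit gene of the mitochondrial enzyme of leucine breakdown, read 923.9, 1121 and 551.1 with IAA, against 507.9, 515.1 and 355.3 untreated, and rose 1.83-fold (limma, adjusted p = 0.0308). AT5G61590, the wax biosynthesis repressor gene DEWAX, read 1963.7, 2724 and 3051.4 with IAA, against 1297.7, 1431.7 and 1335.2 untreated, and rose 1.87-fold (limma, adjusted p = 0.033). Its untreated arrays were nearly level, and its mock value of 2968.7 was near Columbia with IAA.

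Of 66 probe sets for genes of the plastid genome 1 was called, ndhH, a subunit gene of the plastid NDH complex, at 1.62-fold higher (limma, adjusted p = 0.0348), against 0.803% of all probe sets. The median log2 ratio of the 66 was 0.22 in arf6 arf8, 0.04 in arf6/arf6 ARF8/arf8 and 0.34 in Columbia, and 0.23 for mock over untreated in Columbia.

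Some called genes are close neighbours in the genome. AT1G72900 and AT1G72940, both higher, have 3 coding genes between them, and WRKY53 and AT4G23870, both higher, have 4. AT5G02160 and AT5G02180 have 1 between them and moved in opposite directions, with log2 differences of 0.91 and -0.84. Whether their probe sets share sequence, and whether as many neighbours would arise among genes taken at random, was not tested.

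The called probe set with the largest change has no gene listed. 247925_at read 2829.2, 2015.4 and 6532.3 with IAA in arf6 arf8, arf6/arf6 ARF8/arf8 and Columbia, against 284.5, 305.8 and 909.9 untreated, with a mock value of 4147.9. The called probe set with the largest fall, 256266_at, read 167.4, 153 and 198.1 with IAA, against 528.1, 574 and 604.5 untreated, with a mock value of 146.3.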
